A study of Homo sapiens with 12 samples.

Results

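The stathmins are a family of 4 human genes, STMN1, STMN2, STMN3 and STMN4, and all 4 were taken by symbol from a gene list of 20620 entries. Stathmin proteins bind tubulin dimers and promote the shortening of microtubules, and phosphorylation of the stathmin domain weakens that binding. STMN1 encodes a cytosolic protein that many dividing and neuronal cells make, whereas STMN2, STMN3 and STMN4 encode neuronal forms that palmitoylation attaches to membranes. STMN2, also called SCG10, is carried to growth cones and takes part in the outgrowth and repair of axons. It is known as a transcript that the RNA-binding protein TDP-43, encoded by TARDBP, keeps free of a cryptic last exon in its first intron. In amyotrophic lateral sclerosis and frontotemporal dementia, affected neurons lose TDP-43 from their nuclei.

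Human embryonic stem cells of the established line WA01 were turned into cortical neurons by overexpression of NGN2, a proneural transcription factor. They were given for 7 days either a short hairpin RNA against TDP-43 (genotype TDP-43 knockdown) or a scrambled hairpin (genotype WT, called control here). Each treatment gave 3 RNA-seq libraries and 3 libraries of 3' end-seq, an assay that reads the last bases of polyadenylated transcripts, so that 12 libraries were made in 4 groups. All came from a single cell line, and the labels do not say whether replicates were separate cultures, so the deposited p-values could reflect technical variation alone. The values below were taken from comparisons that the authors deposited, with no value per library. No spread between replicates can therefore be given, and the depth is unknown. The RNA level of the stathmins, of TARDBP and of neuronal markers was not analysed here.

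STMN2 and STMN4 were listed as changed after TDP-43 knockdown, and STMN1 and STMN3 were in none of the authors' deposited tables of changes. The 3' end-seq polyadenylation table listed STMN2 alone of the 4, in the direction shorter. Of all 19943 gene symbols in the gene list, 9.47% were listed there in either direction and 1.32% as shorter. The table of cryptic polyadenylation sites, which are sites little used in control, held 1 stathmin site, in STMN2, and 1.96% of all symbols had such a site. The splicing table held 2 of the 4, STMN2 with 2 clusters of introns and STMN4 with 1, against 11.5% of all symbols. The RNA-seq polyadenylation table listed 0 of the 4, against 4.16% of all symbols, so the STMN2 change in 3' end-seq had no counterpart there. How many genes were tested is not known, and each table stops at the authors' own threshold. Absence of STMN1 and STMN3 therefore does not show that they were unchanged. By position, no listed cryptic site, rising site or intron overlapped the RefSeq extent of STMN1 on chromosome 1 (25884179 to 25906880, GRCh38.p14) or of STMN3 on chromosome 20 (63639712 to 63653424).

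STMN2 (ENSG00000104435) lies on the plus strand of chromosome 8, where RefSeq places it from 79611117 to 79666158 in GRCh38.p14, over 55042 nt. In 3' end-seq, its cryptic site at position 79617048 (hg38) took 39.0% of usage in TDP-43 knockdown and 0.0207% in control in the authors' deposited table. The site was thus well used in the knockdown and close to unused in control, with 1 pooled or averaged value per group. The site lies in an intron, 5931 nt after the RefSeq start, which is 10.78% of the way through the gene. The site that lost use lies at position 79666156, 2 nt before the RefSeq end, so a part of polyadenylation shifted away from the end of the gene and into its first intron.

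The gain of the STMN2 site stood apart by its ratio and not by its size. The knockdown minus control difference was 39.0 percentage points in the authors' deposited table. That was the 30th largest of the 457 distinct cryptic sites and the 13th largest of the 129 intronic ones. The ratio of knockdown to control usage was 1887, the highest of the 457, computed from the authors' deposited table. The next highest ratio was 118 among all other sites and 32.5 among the other intronic sites, while the median of the 129 intronic sites was 6.36. Because the ratio rests on a control value near 0 at unknown depth, its size carries an error that cannot be given. How low a control usage above 0 can be also depends on the reads of the gene, which are not given. The sites are therefore not on an equal footing when ranked by ratio or by low control usage. In the median intronic site, usage was 20.0% in knockdown and 3.41% in control in the authors' deposited table.

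**Figure D1:**
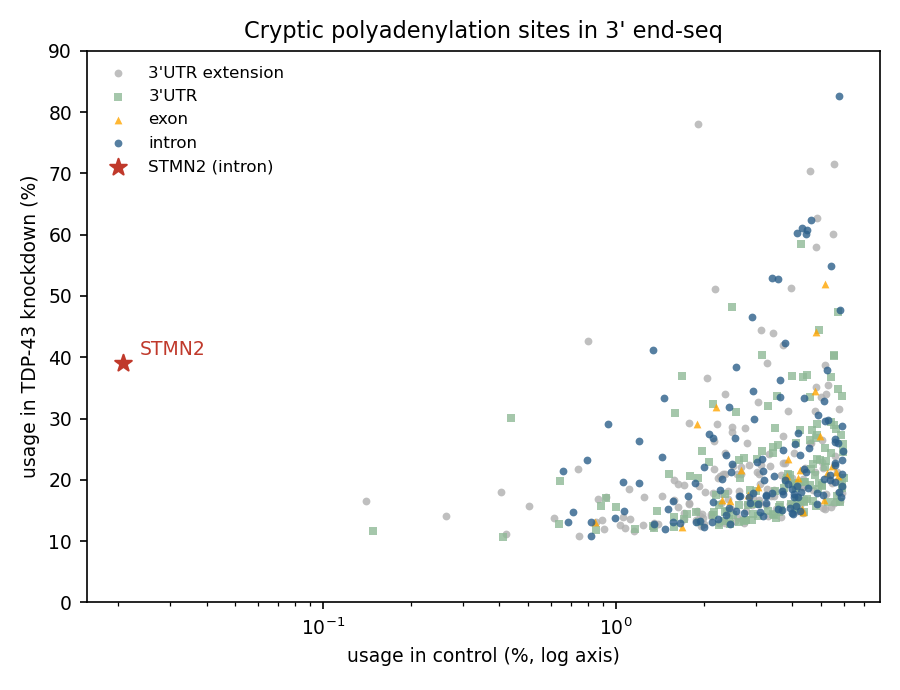
Usage of the 457 cryptic polyadenylation sites in TDP-43 knockdown (percent, vertical axis) against control (percent, log horizontal axis), 1 value per group and site, marked by position in the gene. STMN2, the star at 39.0% in knockdown and 0.0207% in control, lies left of all other sites and within the range of the others in knockdown usage.

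Sites were set beside STMN2 by closeness of the usage difference among intronic sites. The 5 closest were those of ADCY8 (an adenylyl cyclase), ERCC1 (a DNA repair endonuclease subunit), EGFR (the epidermal growth factor receptor), TNIP1 (an inhibitor of NF-kappa B signalling) and STX5 (a Golgi syntaxin). ERCC1 had 41.2% usage in knockdown and 1.34% in control in the authors' deposited table, and ADCY8 had 42.3% in knockdown and 3.79% in control in the same authors' deposited table. EGFR had 47.6% in knockdown and 5.82% in control, and TNIP1 had 38.4% in knockdown and 2.56% in control, in the authors' deposited table. STX5 had 46.5% in knockdown and 2.91% in control in the authors' deposited table. The control usage of these 5 sites was thus between 1.34% and 5.82%, well above that of STMN2. ERCC1, EGFR, TNIP1 and STX5 were called shorter like STMN2, whereas ADCY8 was called longer. By low control usage, the sites next to STMN2 were those of ATP6V1H at 0.140%, NDUFA5 at 0.148%, C3orf14 at 0.263% and DYRK1B at 0.405% in the authors' deposited table. None of these 4 is intronic, and their knockdown usage ran from 11.7% to 18.1% in the authors' deposited table, below that of STMN2.

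The change of the polyadenylation usage index of STMN2 in 3' end-seq was -0.391 in the authors' deposited table, with an adjusted p given as exactly 0. The same 0 was given for 150 entries in all, 16 of them called shorter, so it does not set STMN2 apart. The STMN2 change was the 29th largest of the 339 entries called shorter and the 184th largest in size of all 2220 entries. Entries were counted as listed and not merged by gene. The falling and the rising site lay 49108 nt apart, the 79th widest pair of the 339, whose median was 9829 nt. Entries called shorter made up 15.3% of the table. The index change and the difference in usage both come from the 3' end-seq libraries and are not independent results. Their sizes were 0.0408 percentage points apart for STMN2. Over the 199 cryptic sites that were also rising sites, the median gap was 0.466 and the largest 10.6 percentage points, and 147 of the 199 were within 1 point.

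In RNA-seq, the splicing of STMN2 changed at the same place. Splicing was given per cluster of introns that share or border splice sites, as the change of each intron's share of its cluster. Which group was subtracted is not stated, and positive values are read here as higher in the knockdown. This reading rests mainly on STMN2 itself, whose junction lies beside the site that rose, so the splicing direction of STMN2 is not an independent result. With STMN2 left out, introns with an unannotated 3' splice site that changed by 10 points or more were positive in 134 of 205 cases (65.4%). Annotated ones with such a change were positive in 441 of 1095 (40.3%). Without that cut the split was more even. Of 2631 introns with an unannotated 3' splice site, 1345 were positive and 1124 negative. Of 7156 annotated ones, 3021 were positive and 4012 negative. In the sense cluster of STMN2, the intron from 79611214 to 79616822 ends at an unannotated 3' splice site and gained 44.9 points in the authors' deposited table. The annotated first intron, from 79611214 to 79636802, lost 26.4 points in the authors' deposited table. The next annotated intron, from 79636897 to 79641378, lost 18.5 points in the authors' deposited table. The gain and the 2 losses sum to 0, and the cluster's adjusted p was 3.01e-11 in the authors' deposited table, the 26th lowest of 2994 clusters.

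Bounds on the levels follow from these changes and the stated reading of their sign; a share cannot be negative and the shares of a cluster make up the whole. In the sense cluster, the unannotated junction held at least 44.9% in knockdown and at most 55.1% in control, bounds computed from the authors' deposited table. With the opposite sign these would be at most 55.1% in knockdown and at least 44.9% in control. The unannotated and the annotated first intron begin at the same 5' splice site, 97 nt after the RefSeq start. The unannotated junction ends 21.9% of the way through the annotated first intron. From it to the cryptic polyadenylation site is 226 nt, and from the cryptic site to the annotated 3' splice site is a further 19754 nt. A transcript that begins at the RefSeq start, uses this junction and ends at the cryptic site would hold 323 nt, computed from positions and not measured. The sequence of the cryptic exon is not printed here.

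**Figure D2:**
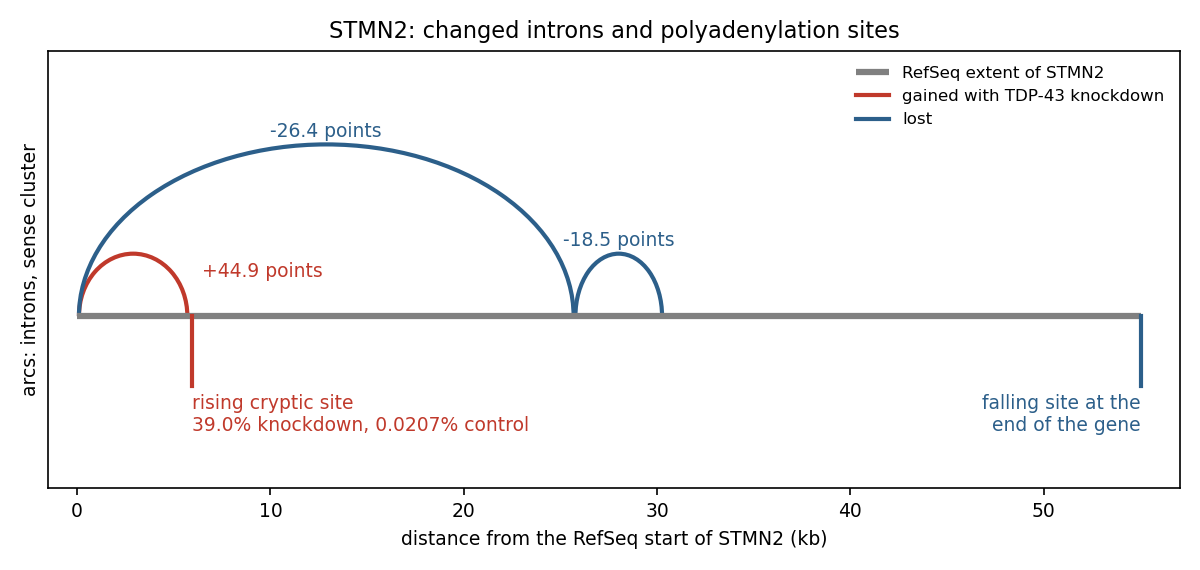
Map of STMN2 to scale (horizontal axis, distance from the RefSeq start in kb), with arcs for the 3 introns of the sense cluster and their changes in percentage points, and lines below for the polyadenylation sites. The gained intron (+44.9 points) ends just before the rising cryptic site (39.0% in knockdown and 0.0207% in control), while both lost introns (-26.4 and -18.5 points) lie past or across it.

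A further STMN2 cluster was listed on the opposite strand, with the same coordinates. In it the 5608 nt intron with the unannotated 3' splice site gained 54.2 points and the 25588 nt annotated first intron lost 54.2 points in the authors' deposited table. The adjusted p was 0.000302 in the authors' deposited table, the 458th lowest of 2994. Under the same reading, the unannotated junction had at least 54.2% in knockdown and at most 45.8% in control, bounds computed from the authors' deposited table, and the opposite sign would give at most 45.8% in knockdown and at least 54.2% in control. The direction was the same on both strands. Of 15978 distinct introns in the splicing table, 2 were listed on both strands, and both were these STMN2 introns. What the opposite-strand entries measure was not tested, and they are not a replicate of the sense cluster. Among the 2633 introns with an unannotated 3' splice site, the gain was the 9th largest in the sense cluster and the 6th largest in the opposite-strand cluster. The sense cluster also counts the next annotated intron, whereas the opposite-strand cluster holds only the 2 introns from the shared splice site. The 2 gains are thus shares of unlike totals, and their sizes and ranks are not compared with each other.

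Junctions nearest to STMN2 in gain were taken among introns with an unannotated 3' splice site of other genes. They were those of WSCD2 at 46.4 points, SYCE1L at 42.8, EPB41L4A at 52.0, HDGFRP2 at 37.7 and PXDN at 36.5 in the authors' deposited table. Their cluster adjusted p ranged from 8.85e-07 to 0.0139 in the authors' deposited table, above that of the STMN2 sense cluster. Under the symbols of the splicing table, none of the 5 genes was in the 3' end-seq polyadenylation table or had a cryptic site. Some symbols differ between the deposited tables, so a listing under another symbol could have been missed. STMN2 thus had a junction gain of a size that other genes shared, together with a polyadenylation change that these 5 were not listed for under those symbols.

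The pairing of a gained junction with a cryptic polyadenylation site was examined over all 129 intronic cryptic sites. STMN2 was the 1 site with a listed unannotated 3' splice site up to 1000 nt upstream on the same strand, a distance chosen with earlier results of these data known. ARHGAP22, a GTPase-activating protein gene, came next at 1002 nt, 2 nt beyond that distance, with a junction gain of 5.5 points in the authors' deposited table. Its site had 34.6% usage in knockdown and 2.94% in control in the authors' deposited table. PTPRN2, which encodes a protein of dense-core vesicles, followed at 2018 nt with a junction change of -1.1 points in the authors' deposited table. Within 50000 nt, 14 of the 129 sites had such a junction upstream, 9 of them listed under the gene of the site. With junctions of any unannotated kind within 1000 nt, the sites of CNR1 (-0.8 points at 714 nt) and STAU2 (3.6 points at 965 nt) joined STMN2 in the authors' deposited tables. Of the 129 sites, 18 lay in genes with any listed splicing cluster, so most intronic cryptic sites had no listed junction to be near.

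**Figure D3:**
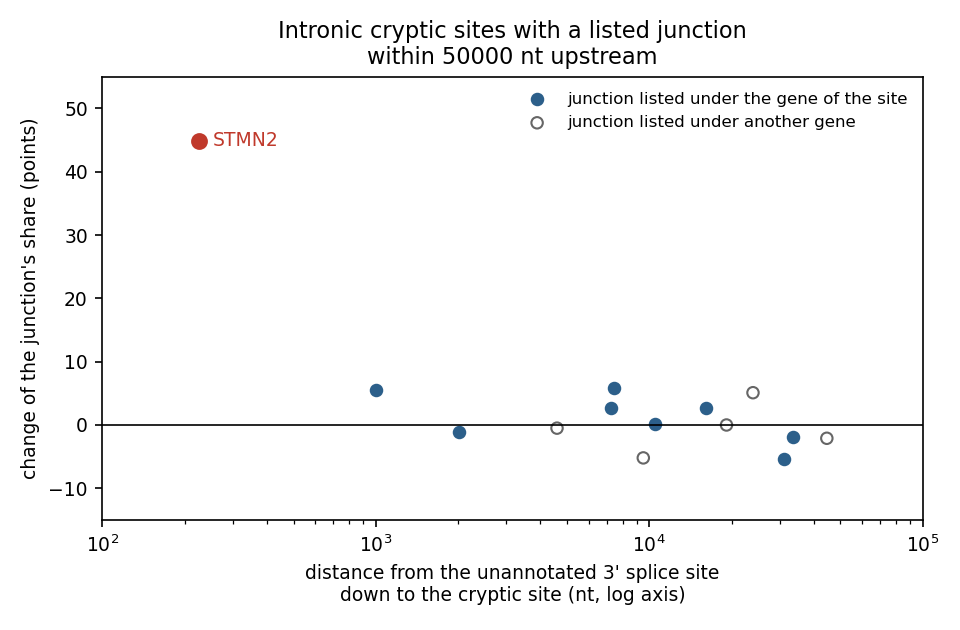
Change in share of the nearest upstream junction with an unannotated 3' splice site (percentage points, vertical axis) against its distance from the cryptic site (nt, log horizontal axis), for the 14 of 129 intronic cryptic sites with such a junction within 50000 nt. STMN2 lies at 226 nt and 44.9 points, and the other 13 lie at 1002 nt or more and between -5.4 and 5.9 points.

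In 44 cases, an intronic cryptic site was also the one that rose in a gene called shorter. Of these, 13 lay in genes with a listed splicing cluster and 9 of those genes had a listed junction with an unannotated 3' splice site. The largest gain of such a junction in the gene was 54.2 points in STMN2, 31.2 in PTPRN2, 11.5 in ARHGAP22 and 2.7 in STAU2 in the authors' deposited table. In AUTS2, PTPRD, EML1 and PAK2 the highest value of such a junction was below 0, from -18.5 to -0.2 points, in the authors' deposited table. HECW1 had 1.7 points in the authors' deposited table. Under the stated reading of the sign, which rests mainly on STMN2 itself, the STMN2 value lay at the top of this group. This held on the opposite-strand cluster and, at 44.9 points, on the sense cluster.

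STMN4 (ENSG00000015592), the gene of the stathmin also called RB3, changed in splicing by far less and without a listed polyadenylation change. RefSeq places it on chromosome 8 from 27235308 to 27258404 (GRCh38.p14), over 23097 nt and with 11 transcripts, and its cluster is on the minus strand. The cluster holds 4 introns that surround a cassette exon, an exon that is either kept or skipped. The skipping intron from 27241262 to 27242397 lost 5.7 points in the authors' deposited table. The intron before the exon, from 27241757 to 27242397, gained 4.9 points in the authors' deposited table. The intron after it, from 27241262 to 27241677, gained 1.6 points in the authors' deposited table. Under the stated reading, use of the exon was higher in knockdown than in control. The flanking introns lie 80 nt apart.

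The fourth STMN4 intron, from 27241259 to 27242397, skips the exon too and ends at an unannotated 3' splice site 3 nt past the annotated one. It lost 0.7 points in the authors' deposited table, and both skipping introns therefore moved the same way. The cluster's adjusted p was 0.00585 in the authors' deposited table, the 1180th lowest of 2994. Its largest change, 5.7 points in size, compares with a median of 6.4 points for the largest change per cluster over the whole table. The direction of the unannotated junction was opposite to that of STMN2, and the size was 0.7 against 44.9 points. That difference between the 2 genes was not tested, since the table gives no error per intron. No listed STMN4 junction was unannotated beyond this shift of 3 nt, and unlisted junctions could not be examined.

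**Figure D4:**
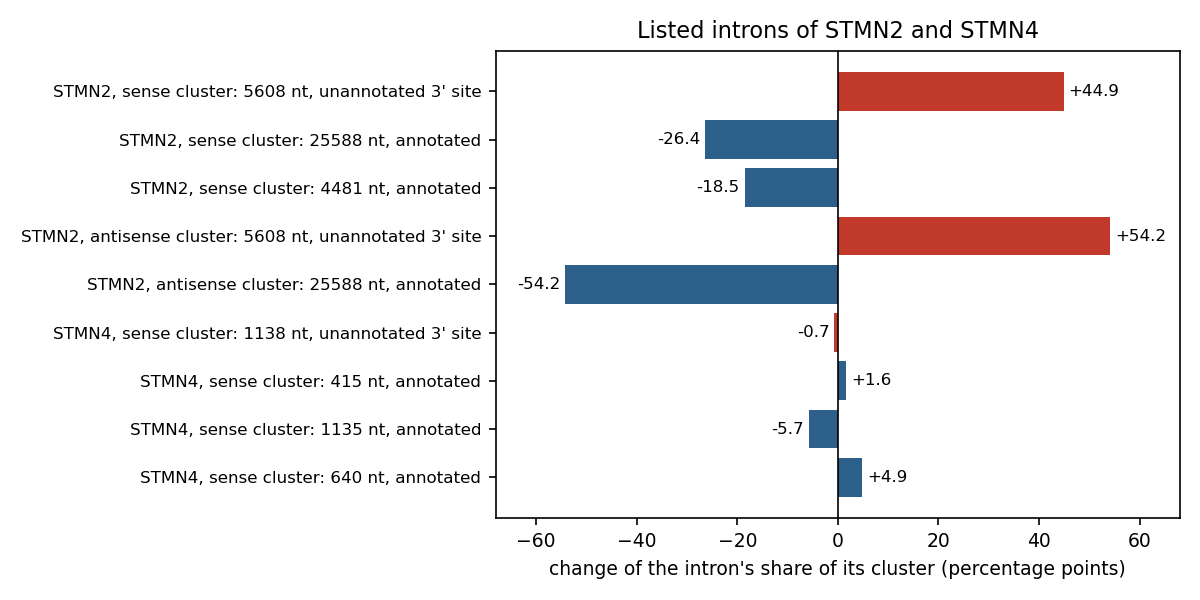
Change of share in percentage points (horizontal axis, knockdown minus control as read here) for the 9 listed introns of STMN2 and STMN4, named by cluster, length and annotation; red bars have an unannotated 3' splice site and blue bars are annotated. STMN2 introns moved by 18.5 to 54.2 points and STMN4 introns by 0.7 to 5.7 points.

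Genes that act on stathmins or with them were taken from lists of kinases, axon maintenance genes and tubulins. Of 20 kinases and pathway genes, 10 were in a table of changes, against 22.0% of all symbols: 9 in splicing, 2 in RNA-seq polyadenylation, 1 in 3' end-seq polyadenylation and 1 with a cryptic site. By table, the shares over all symbols were 11.5%, 4.16%, 9.47% and 1.96%. These shares take in every symbol, whether or not it could be tested, so the counts are not read as an enrichment. The c-Jun N-terminal kinases, which phosphorylate STMN2, were all 3 listed. MAPK10, the mostly neuronal member, was longer in 3' end-seq with an index change of 0.226 and distal in RNA-seq with 0.759 in the authors' deposited tables. The index changes of the 2 assays have no stated scale, so their sizes are not compared, here or for the genes below. The cryptic 3'UTR site of MAPK10 had 28.2% usage in knockdown and 4.23% in control in the authors' deposited table. MAPK9 had 3 clusters, with largest changes of 22.0, -19.7 and -18.9 points, while MAPK8 had 2, with 4.9 points in one and -3.2 points in the other, in the authors' deposited table. PRKACB, a catalytic subunit of protein kinase A, had a largest change of -21.7 points (cluster adjusted p = 4.74e-20) in the authors' deposited table.

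The other listed kinases and pathway genes changed in splicing as well. MAP3K13 had a largest change of 3.7 points, MAP2K4 of 3.3, CDK5 of 4.2, PAK1 of 1.6, ROCK1 of 1.7 and STAT3 of -7.1 and 1.0 points in 2 clusters, in the authors' deposited table. CDK5, a neuronal kinase, was also distal in RNA-seq with an index change of 0.698 in the authors' deposited table. MAP3K12, MAP2K7, CDK5R1, CAMK4, PRKACA, ROCK2, AURKB, UHMK1, RAC1 and CDKN1B were in no table of changes.

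Of 9 axon maintenance and palmitoylation genes, 8 were in a table of changes, against 22.0% of all symbols. The 22.0% takes in every symbol, whether or not it could be tested, so the count is not read as an enrichment. Of the 9, 5 were in 3' end-seq, against 9.47% of all symbols, and all 5 were longer, the direction opposite to STMN2. Entries called shorter were 15.3% of all listed there, so a list of 5 longer genes does not set it apart. NMNAT2, a labile axon survival enzyme, had an index change of 0.110, and SARM1, the enzyme that drives axon degeneration, had 0.164 in the authors' deposited table. FBXO45 had 0.266, and the palmitoyltransferase genes ZDHHC7 and ZDHHC17 had 0.175 and 0.266 in the authors' deposited table. MYCBP2, an E3 ligase that works with FBXO45, was distal in RNA-seq with 0.641 in the authors' deposited table. In splicing, the largest changes were 3.1 points in the growth cone gene GAP43, -6.6 in ZDHHC17, -1.4 in ZDHHC7 and 1.2 in SKP1 in the authors' deposited table. ZDHHC3 was in no table of changes, and none of the 9 had a cryptic site.

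Tubulin genes encode the partners that stathmins bind. Of 12 tubulin genes, 3 were in a table of changes, against 22.0% of all symbols, and 0 in 3' end-seq, against 9.47%. The count in any table was near the share over all symbols. TUBB and TUBB2B were distal in RNA-seq with index changes of 0.347 and 0.641, and TUBB2A had a largest splicing change of -6.3 points, in the authors' deposited tables. Tubulin genes are near-identical in places, so reads could be split between them.

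The nearest RefSeq genes on either side of the 4 stathmin genes were examined in the same tables. Of these 8 neighbours, 1 was listed, against 22.0% of all symbols in any table and 9.47% in 3' end-seq. MHENCR, a long noncoding RNA gene 10888 nt from STMN3, was longer in 3' end-seq with an index change of 0.182 in the authors' deposited table. The neighbours of STMN2, at 38767 and 49220 nt, had no listed change.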

How the data were processed

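Per the labels' protocols, RNA-seq libraries used a stranded total RNA kit and 3' end-seq libraries a QuantSeq REV kit, which primes on poly(A) and can prime at internal A-rich stretches. Tools named in the submitters' processing notes are fastp, Salmon, DESeq2, STAR and SAMtools, with the build hg38 and without versions or roles. The splicing tables carry the name leafcutter; other callers are not given in the sources.

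The changes of the usage index and of intron share are scores that the authors deposited; the scale of the index is not stated. The adjusted p-values were deposited by the authors, per gene or per cluster. The usage of cryptic sites is a fraction deposited by the authors, printed as a percent, with 1 value per group. The 5 tables hold changed items without depth, so no interval or test of significance was computed here.

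In a gene table, 6 columns of per-sample values were left out, since their names do not tie them to samples, and the gene names alone were read. The test of gene expression set out in the design was therefore not run. Members were matched by symbol, and list genes also by RefSeq synonyms. The shares over all symbols were counted by exact symbol. The cryptic table had 459 lines, with 2 sites given in duplicate with slightly different values, of which the first was kept. A junction counted as near a site when its 3' end lay up to 1000 nt upstream on the same strand; this and the ranking were tested on simulated data. Coordinates of sites and introns are the authors' in hg38, and gene extents are RefSeq's in GRCh38.p14.

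Genes named are the 4 stathmins, the listed members of 3 lists, the 5 sites or junctions closest to those of STMN2, the 5 sites with the lowest control usage, and the nearest genes. ARHGAP22, CNR1, STAU2 and the genes with both a premature site and a splicing cluster were named after their values were seen. The members and lists were chosen with earlier results of these data known. Python 3.11.15, numpy 2.4.6, pandas 2.3.3 and matplotlib 3.10.9 were used.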

Additional observations from a re-analysis of the deposited data

How the results depend on the processing

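Counts of stathmin genes were the same by symbol and by coordinates in the 3' end-seq, cryptic site and splicing tables. At an adjusted p of up to 0.001, the splicing table kept 1 of the 2 stathmin genes, STMN2. Of the 5 STMN2 introns, 3 were on the strand of the gene. Among intronic sites alone, the STMN2 site ranked 14 in place of 35 by knockdown usage and 13 in place of 30 by usage difference, and it ranked 1 by ratio. Its index change ranked 29 among entries called shorter in place of 184, and its junction 9 among unannotated 3' splice sites in place of 26. These ranks moved because fewer items were ranked, or because the ratio replaced the difference. The distance of 1000 nt and its alternatives were chosen with the data known: the intronic cryptic sites with an unannotated 3' splice site upstream numbered 1 within 500 nt, 2 within 2000, 4 within 5000, 7 within 10000 and 14 within 50000 nt, and 3 with any unannotated splice site within 1000 nt. No paired analysis was possible because the tables used hold no value per library. Other settings for gene expression (normalization, low-value filter, pseudocount, test, replicate block and leaving out replicates) were not run for the same reason. Depth is unknown.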
